A study of Solanum lycopersicum with 31 samples.

Results

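Genes of starch and trehalose metabolism were taken from tomato leaf RNA as every gene whose product name contains starch, amylase, isoamylase, trehalose, alpha-glucan, 4-alpha-glucanotransferase or glucose-1-phosphate adenylyltransferase. The names gave 51 of 30397 genes, and 33 of them passed the filter on low counts and were tested among 16198 genes. By product name, 14 belong to starch synthesis, 15 to starch breakdown and 18 to trehalose metabolism, and 4 stand outside these roles. The tested members were 6 for synthesis, 12 for breakdown, 11 for trehalose and all 4 of the others.

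Leaves of wildtype Moneymaker tomato were sampled from separate plants kept in a growth chamber with ceramic metal halide and incandescent lamps, beneath an organic solar cell filter or a control filter. FI stands for a filter of the blend FTAZ:IT-M, FP for one of FTAZ:PCBM, PI for one of PTB7-Th:IEICO-4F and C for the control, which was spectrally neutral. In the height controlled experiment (HC) the groups were FI_HC, FP_HC, PI_HC and C_HC, and in the experiment with controlled photosynthetic photon flux density (PC) they were FI_PC, FP_PC, PI_PC and C_PC. Each group held 4 plants except PI_HC, which held 3, giving 31 libraries of 13671052 to 15210356 gene counts. Leaf mesophyll markers were detected in every library, and all 21 genes of the marker list had counts. The members took 0.39% to 0.823% of a library.

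Leaves build starch in the chloroplast by day and draw on it by night. ADP-glucose, made by glucose-1-phosphate adenylyltransferase, is the sugar donor that starch synthases add to growing glucan chains, while branching enzymes and some isoamylases shape the granule. Beta-amylases release maltose from the granule, helped by isoamylase 3, alpha-amylases and phosphorylase, and 4-alpha-glucanotransferases recycle the short chains. Trehalose 6-phosphate is made by trehalose-phosphate synthases and removed by trehalose-phosphate phosphatases. In Arabidopsis it follows the sucrose level of the leaf and is known as a sugar signal.

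The identifiers of 3 libraries go against their labels. The library labelled C_PC 4 carries the block code of the other PI_PC libraries, that labelled PI_PC 4 the code of FP_PC, and that labelled FP_PC 4 the code of PI_HC. They were analysed under their labels, and results that touch them are given with and without them. Mesophyll marker sums show how far libraries of the PC experiment lay apart. The sums were 42210, 18853, 18149 and 74280 CPM in PI_PC libraries 1 to 4 and 63145, 51443, 62602 and 18598 CPM in C_PC libraries 1 to 4. A CPM value is a gene's share of its library's counts after TMM scaling, not corrected for gene length. The library labelled C_PC 4 thus lay beside PI_PC 2 and 3, and the library labelled PI_PC 4 lay above all C_PC libraries. In the other PC groups the sums were 25037 to 33447 CPM in FI_PC and 37831 to 63486 CPM in FP_PC. Markers of dividing tissue summed to 147 to 344 CPM over all libraries, those of phloem to 171 to 264 CPM and those of guard cells to 24.1 to 57.5 CPM. In whole leaf tissue, fewer cells of a type and less RNA per cell cannot be told apart.

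What the counts can show differs between members, because a fragment was counted only where 1 exon record held it. Of the 51 members, 21 have several annotated transcripts, with a median mean count of 0.935 per library, and 6 of these were tested. The 30 members with 1 transcript had a median mean count of 571.4, and 27 were tested. The untested members include granule-bound starch synthase 1 (GBSS1), branching enzymes 1 and 3, isoamylases 1 and 2, the glucanotransferase DPE2 and trehalose-phosphate synthase 1 (LOC100134910). Of the 18 untested members, 15 have several transcripts, so their low counts are no measure of their expression. Among these, counts were 0 in every library for soluble starch synthase 1 (LOC101259221) and beta-amylase 7 (LOC101248715). The other 3 untested members have 1 transcript and reached at most 2 counts in a library, and an adenylyltransferase small subunit (LOC101253868) among them had 0 counts throughout.

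Few members passed the test, and most calls of a filter against its control were made under PI. In PI_HC against C_HC, 4 of 33 tested members (12.1%) passed an adjusted p of 0.05 in edgeR's quasi-likelihood test, against 2.14% of all tested genes. In PI_PC against C_PC it was 3 members, all lower, against 0.309% of all genes called and 0.179% called lower. In FI_PC against C_PC it was 2 members, both lower, against 2.31% of all genes called and 0.883% called lower. No member was called for the other 3 filter contrasts, where the shares of all genes were 0.0% for FP_PC against C_PC, 0.0% for FI_HC against C_HC and 0.037% for FP_HC against C_HC. DESeq2's Wald test also called 0 members in those 3. At an unadjusted p under 0.05 edgeR listed 1 member for FP_PC, 2 for FI_HC and 4 for FP_HC. Filter contrasts of 1 experiment share their control libraries. Between the experiments no member was called for FI_HC against FI_PC or FP_HC against FP_PC, where 0.111% and 0.0494% of all genes were called, nor for the difference between the FP effects, where 0.0% were. DESeq2 called 0 members in these 3 too, and at an unadjusted p under 0.05 edgeR listed 3, 4 and 0 members in the order given.

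**Figure D1:**
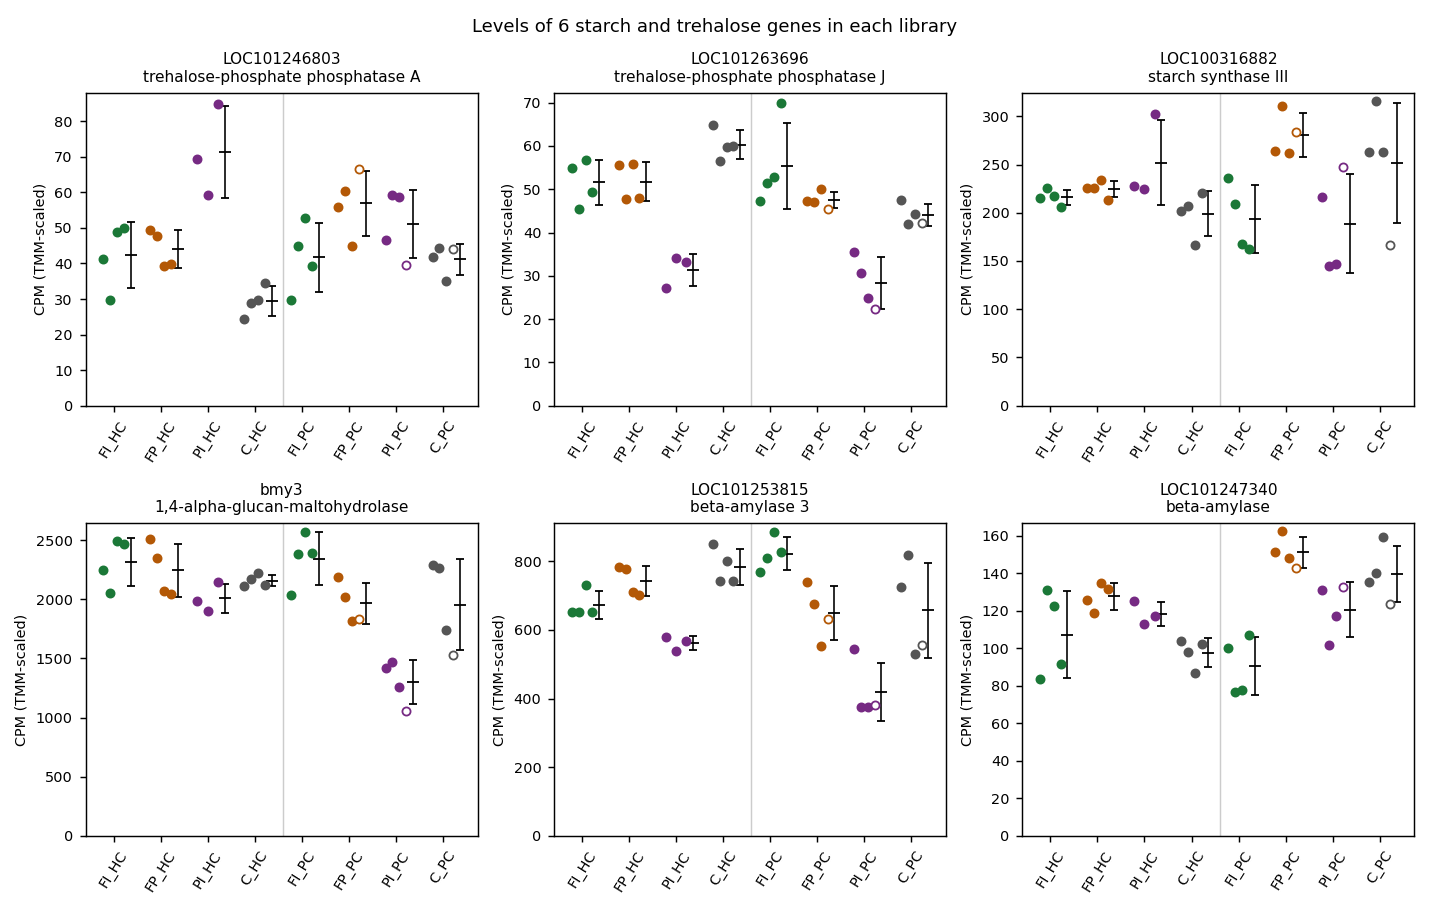
CPM of the members that the results turn on, by group, with 1 point per plant (open circles are the libraries labelled C_PC 4, PI_PC 4 and FP_PC 4) and black bars for the mean ± SD. Trehalose-phosphate phosphatase J is low in both PI groups, at a mean of 31.4 CPM in PI_HC and 28.3 CPM in PI_PC, against 60.3 CPM in C_HC and 44.0 CPM in C_PC.

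Among the 6 tested synthesis members, the counts came mostly from 3 genes with 1 transcript each. The ADP-glucose pyrophosphorylase genes AgpL1 and agpL3, given below, fall outside that list by wording. They reached 355 CPM in PI_PC 2 and 207 CPM in the library labelled PI_PC 4, respectively. Starch synthase III (LOC100316882, chromosome 2, 45313386 to 45330559, plus strand, build SL3.0) averaged 225 CPM over the libraries, granule-bound starch synthase 2 (LOC101252941) 154 CPM and starch synthase 4 (LOC101249596) 14.6 CPM. The other 3 tested synthesis genes lay at 3.74 CPM for a branching enzyme (LOC101258151), 2.14 CPM for starch synthase VI (LOC100191117) and 0.484 CPM for starch synthase IV (LOC100316881). No member of the synthesis list passed the test in any of the 13 contrasts with all libraries.

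Starch synthase III, which elongates glucan chains, ranged from 145 to 316 CPM over the libraries, and its extremes lay in the PC experiment. It had 217, 145, 147 and 247 CPM in PI_PC libraries 1 to 4, against 263, 316, 263 and 167 CPM in C_PC libraries 1 to 4. The groups overlap only through the library labelled C_PC 4, which lay below PI_PC 1 and the library labelled PI_PC 4. The library labelled PI_PC 4 was the highest of its group but lay below C_PC 1 to 3. The log2 fold change was -0.42 (SE 0.17, edgeR adjusted p = 0.245). Without the 3 libraries of conflicting identifiers it was -0.72 (edgeR adjusted p = 0.00172), in a fit that called 28.8% of all genes. FI_PC had 236, 209, 168 and 162 CPM. With all libraries no synthesis member was called in FI_PC against C_PC, where the lowest log2 fold change of the list was -0.38. Without the 3 libraries that of starch synthase III was -0.53 (edgeR adjusted p = 0.0318), in a fit that called 6.36% of all genes. The mesophyll marker sums given above are also low in PI_PC 2 and 3, in FI_PC and in the library labelled C_PC 4, and their part in these results was not tested.

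Under equal height, starch synthase III did not pass the test for any filter. PI_HC had 228, 225 and 303 CPM, against 202, 207, 166 and 221 CPM in C_HC, with a log2 fold change of 0.34 (SE 0.18, edgeR adjusted p = 0.369). All 3 PI_HC libraries lay above the 4 C_HC libraries. FI_HC lay at 206 to 226 CPM and FP_HC at 214 to 234 CPM, partly within the control's range.

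The low starch synthase VI had the largest log2 fold change among members with a mean log2 CPM of at least 1 in 2 filter contrasts. It had 1.07, 1.85, 0.818 and 0.805 CPM in PI_PC, against 2.72, 3.05, 1.02 and 1.73 CPM in C_PC, a log2 fold change of -0.89 (SE 0.38, edgeR adjusted p = 0.263). FP_PC against C_PC gave a log2 fold change of -0.50 (edgeR adjusted p = 1.00). In both contrasts the groups overlap, and the gene has several transcripts, so it rests on few counts. Granule-bound starch synthase 2, one of the enzymes that extend glucan chains, had 132, 113, 126 and 140.4 CPM in PI_PC, against 152, 159.9, 158 and 110.3 CPM in C_PC. The library labelled C_PC 4 lay below all PI_PC libraries. The log2 fold change was -0.18 with all libraries (edgeR adjusted p = 0.476) and -0.33 without the 3 (edgeR adjusted p = 0.0215).

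The annotation gives some enzymes of the pathway under other words, so 7 genes called ADP-glucose pyrophosphorylase, glucan water dikinase or alpha-1,4 glucan phosphorylase were added after the product names were seen, and all 7 were tested. ADP-glucose pyrophosphorylase is another name of glucose-1-phosphate adenylyltransferase. With all libraries, 1 of the 7 passed the test in the FI_PC contrast, where 2.31% of all genes were called and 0.883% were lower. The large subunit gene agpL3 had 129, 111, 88.0 and 97.5 CPM in FI_PC, against 195, 168, 201 and 152 CPM in C_PC, so that the groups do not overlap. Its log2 fold change was -0.75 (SE 0.17, edgeR adjusted p = 0.0184), beside the low mesophyll marker sums of FI_PC, whose part was not tested. The large subunit gene AgpL1 had 159, 355, 314 and 90.3 CPM in PI_PC, against 119, 121, 74.9 and 259.9 CPM in C_PC. The libraries labelled PI_PC 4 and C_PC 4 lay opposite to the rest of their groups. With all libraries the log2 fold change of AgpL1 was 0.68, and 0 of the 7 genes were called in that contrast. Without the 3 libraries AgpL1 was higher by 1.40 on the log2 scale (edgeR adjusted p = 0.00142), in a fit that called 28.8% of all genes. In FI_PC AgpL1 lay at 164 to 211 CPM, above C_PC 1 to 3 and below the library labelled C_PC 4, so it did not fall with agpL3. In PI_PC agpL3 had 199, 116, 99.7 and 207 CPM, which overlap its C_PC values. Neither of these was called, with or without the 3 libraries.

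In these counts, which keep only fragments held by 1 exon record, starch breakdown was dominated by beta-amylases, the enzymes that release maltose. A beta-amylase named BAM1 averaged 1710 CPM, and 2 genes for chloroplastic beta-amylase 3 averaged 984 CPM (LOC101259175) and 667 CPM (LOC101253815). The gene bmy3, whose product 1,4-alpha-glucan-maltohydrolase is the systematic name of a beta-amylase, averaged 2038 CPM and fell outside the breakdown list only through that wording. These 4 genes, grouped after their values were seen, held 71.0% to 86.7% of all member counts in a library.

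At equal photon flux 2 of the 4 abundant beta-amylases were called lower under PI. LOC101253815 (chromosome 8, 61638999 to 61642414, plus strand) had 546, 375, 375 and 382 CPM in PI_PC, against 726, 818, 530.1 and 554 CPM in C_PC. PI_PC library 1 lay between the 2 lowest C_PC libraries and the other 3 lay below all of C_PC. The gene fell by 0.65 on the log2 scale (SE 0.13, edgeR adjusted p = 0.0284).

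The gene bmy3 (chromosome 1, 76364333 to 76367265, plus strand) had 1420.0, 1467, 1261 and 1059 CPM in PI_PC, against 2293, 2262, 1737 and 1527 CPM in C_PC. All PI_PC libraries lay below all C_PC libraries. It fell by 0.59 on the log2 scale (SE 0.13, edgeR adjusted p = 0.0433). Both calls rest on the spread shared by all 8 groups, since a fit of PI_PC and C_PC alone gave an adjusted p of 0.846 for each. LOC101253815 lost its call without PI_PC 2 (0.071), PI_PC 3 (0.193), C_PC 1 (0.138) or C_PC 2 (0.21), and bmy3 without PI_PC 2 (0.0582), PI_PC 3 (0.218), C_PC 1 (0.216), C_PC 2 (0.235) or C_PC 3 (0.0619), in edgeR adjusted p, and bmy3 also without the low-count filter (0.0757).

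LOC101259175 had 993, 603, 605 and 959.5 CPM in PI_PC, against 1207, 1189.8, 917 and 881 CPM in C_PC. The groups overlap, and the log2 fold change was -0.41 (edgeR adjusted p = 0.167). BAM1 spread widely, with 1140.5, 1851, 1529.9 and 655 CPM in PI_PC, against 1667, 1784, 958 and 1739 CPM in C_PC. The groups overlap broadly.

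Without the 3 libraries, 10 of 33 members were lower in PI_PC, against 15.0% of all genes lower in that fit and 28.8% called in either direction. Besides starch synthase III and granule-bound starch synthase 2, they include LOC101253815 (log2 fold change -0.67, edgeR adjusted p = 0.00173), LOC101259175 (-0.58, edgeR adjusted p = 0.00602) and bmy3 (-0.60, edgeR adjusted p = 0.00152). The chloroplastic 4-alpha-glucanotransferase LOC101250983, which recycles short glucans, had 41.3, 29.7 and 34.9 CPM in PI_PC 1 to 3, against 42.1, 51.1 and 56.3 CPM in C_PC 1 to 3 (log2 fold change -0.49, edgeR adjusted p = 0.0361). With all libraries it showed 57.3 CPM in that labelled PI_PC 4 and 33.0 CPM in that labelled C_PC 4, and its log2 fold change was -0.16 (edgeR adjusted p = 0.716). No member was called higher in PI_PC in that fit.

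At equal height the same beta-amylases were lower on average under PI but did not pass the test. LOC101253815 had 580.0, 538 and 568 CPM in PI_HC, against 849, 743, 800.3 and 741 CPM in C_HC, with no overlap (log2 fold change -0.48, SE 0.14, edgeR adjusted p = 0.0726). LOC101259175 had 794, 831 and 732 CPM in PI_HC, against 1163, 1186, 1081 and 1053 CPM in C_HC, again with no overlap (log2 fold change -0.51, SE 0.15, edgeR adjusted p = 0.076). Without the 3 libraries, none of which is labelled as either group, LOC101259175 was called (log2 fold change -0.51, edgeR adjusted p = 0.0425).

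BAM1 had 1562, 1554 and 1185 CPM in PI_HC, against 2176, 1944, 2013 and 1709 CPM in C_HC (log2 fold change -0.45, SE 0.27, edgeR adjusted p = 0.429). The gene bmy3 had 1983, 1904 and 2144 CPM in PI_HC, against 2114, 2173, 2221 and 2124 CPM in C_HC and the groups overlap (log2 fold change -0.10, SE 0.14, edgeR adjusted p = 0.793). Summed over the 4 abundant beta-amylases, PI_HC held 4919, 4827 and 4628 CPM, against 6301, 6046, 6115 and 5627 CPM in C_HC. PI_PC held 4099, 4295, 3771 and 3055 CPM, against 5892, 6053, 4142 and 4701 CPM in C_PC. Their sum thus lay apart in the HC experiment and touched in the PC experiment only at C_PC library 3 and PI_PC library 2. Mesophyll marker sums were 44577 to 48313 CPM in PI_HC and 33298 to 39579 CPM in C_HC, and their part in the PI_HC values was not tested.

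Between the experiments, bmy3 was higher in PI_HC than in PI_PC by 0.63 on the log2 scale (SE 0.14, edgeR adjusted p = 0.0138). In that contrast 3 of 33 members were called, all higher, against 3.44% of all genes called and 1.93% called higher. None of the 3 calls held in a fit of PI_HC and PI_PC alone, where the edgeR adjusted p was 0.279 for bmy3. Without PI_PC 3 (0.0524) or PI_HC 4 (0.125) bmy3 was also not called. Without the 3 libraries 5 of 33 members were called in that contrast, against 15.5% of all genes.

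A further beta-amylase, LOC101247340 (chromosome 7, 61271375 to 61275594, plus strand), was the breakdown gene that changed under the FI filter. It had 100.2, 76.6, 77.9 and 107 CPM in FI_PC, against 135, 140.0, 159 and 124 CPM in C_PC. All FI_PC libraries lay below all C_PC libraries. The gene fell by 0.62 on the log2 scale (SE 0.13, edgeR adjusted p = 0.00829), and the call ended in a fit of FI_PC and C_PC alone (edgeR adjusted p = 0.149), without FI_PC 2 (0.0521) and without FI_PC 3 (0.0552). Without the 3 conflicting libraries it was again called, as 1 of 3 members against 6.36% of all genes.

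In the HC experiment the same gene had 83.6, 131, 123 and 91.7 CPM in FI_HC, against 104, 97.9, 86.7 and 102 CPM in C_HC. FI_HC spanned the whole control range. The difference between the FI effects of the experiments (FI_HC against C_HC minus FI_PC against C_PC) was 0.76 on the log2 scale (SE 0.18, edgeR adjusted p = 0.0328), the single member called among 33, against 1.2% of all genes. It did not hold in a fit of those 4 groups alone (0.12), nor without FI_PC 2 (0.0912), FI_PC 3 (0.0945), C_PC 2 (0.058), C_PC 3 (0.0661), FI_HC 2 (0.0759), FI_HC 3 (0.0718), C_HC 2 (0.0593) or C_HC 3 (0.076), in edgeR adjusted p. For that difference 2 members were called without the 3 libraries, against 3.51% of all genes.

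In this gene C_HC lay wholly below C_PC, a difference that did not pass the test with all libraries. The log2 fold change of C_HC against C_PC was -0.52 (edgeR adjusted p = 0.0687), or -0.56 without the 3 libraries (edgeR adjusted p = 0.0342), where it was the single member called, against 1.76% of all genes. With all libraries 0 members passed edgeR's test in that contrast, against 0.37% of all genes, with 7 at an unadjusted p under 0.05 and 3 called by DESeq2. In the other groups LOC101247340 lay at 119 to 135 CPM in FP_HC, 113 to 125 CPM in PI_HC, 143 to 162 CPM in FP_PC and 101 to 133 CPM in PI_PC.

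BAM1 was high throughout FI_PC, with 2135, 2127, 2382 and 2034 CPM there, against the 958 to 1784 CPM of C_PC. The groups do not overlap, but the log2 fold change of 0.50 (SE 0.25) did not pass the test (edgeR adjusted p = 0.325). FP_PC spread from 1027 to 2217 CPM. Across the 31 libraries the genes most like BAM1 by Pearson's r of log2 CPM were PP2C-2 (0.877), LOC101247449 (0.874) and LOC101266721 (0.869). Those most like starch synthase III were LOC101258061 (0.956), the glycine dehydrogenase LOC101260070 (0.940) and the ferredoxin-dependent glutamate synthase LOC101246028 (0.915).

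**Figure D2:**
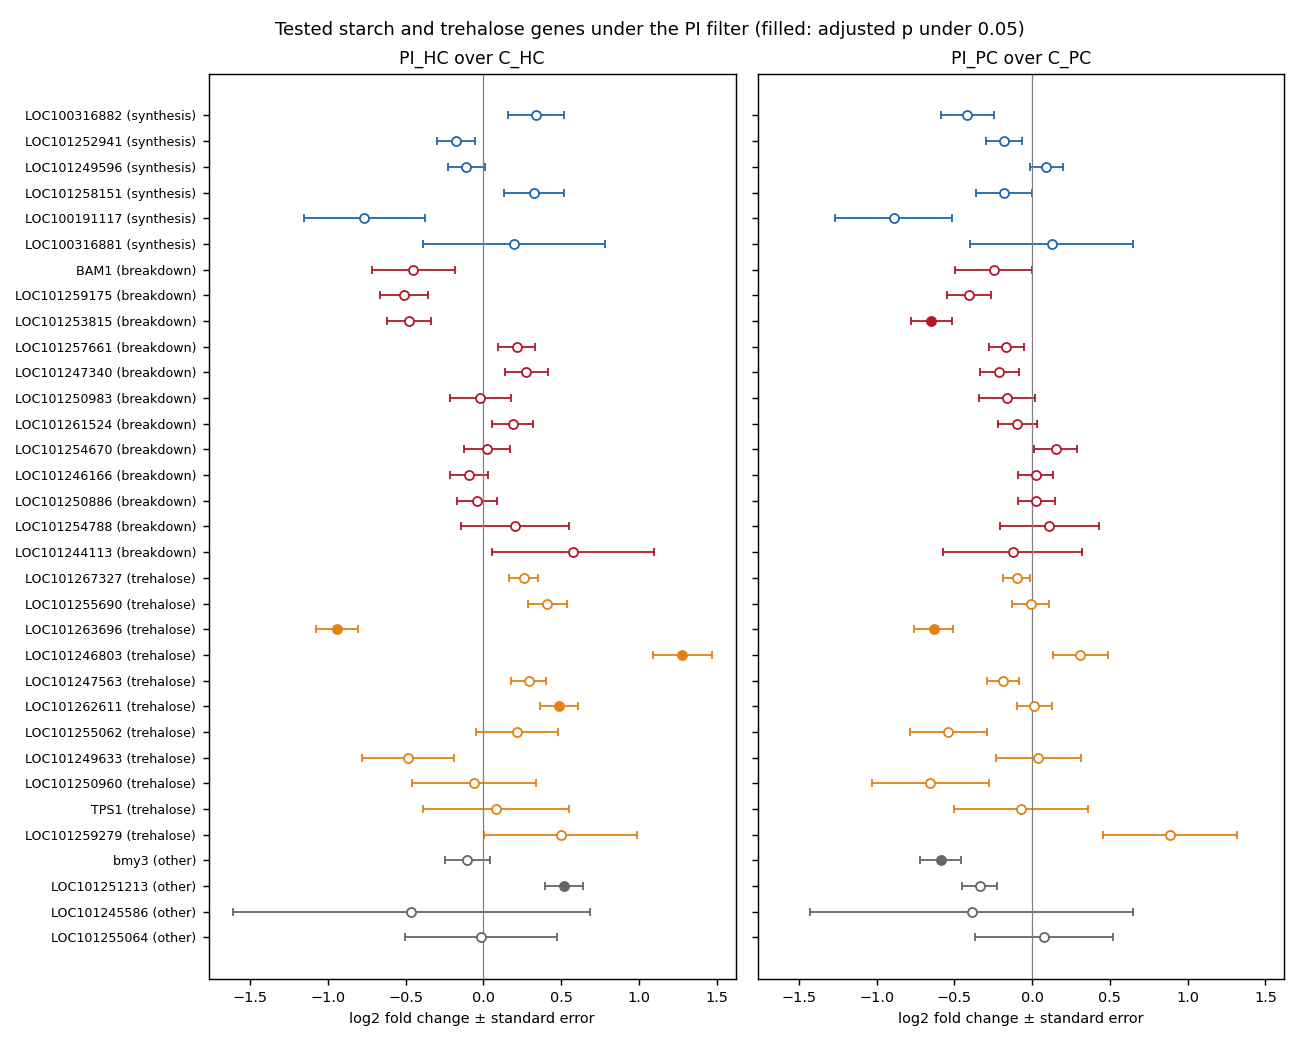
Log2 fold changes of the tested members under the PI filter, for PI_HC against C_HC and PI_PC against C_PC, with error bars of 1 SE and marks for members past an edgeR adjusted p of 0.05. Trehalose-phosphate phosphatase J is lower in both contrasts, at -0.94 and -0.63, and phosphatase A stands highest in PI_HC at 1.28.

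The members with the smallest adjusted p were trehalose-phosphate phosphatases, the enzymes that remove trehalose 6-phosphate, and 2 of them moved in opposite directions under PI. Phosphatase A (LOC101246803, chromosome 3, 55324234 to 55328648, minus strand) had 69.4, 59.3 and 85.0 CPM in PI_HC, against 24.2, 28.8, 29.8 and 34.5 CPM in C_HC. The groups lie far apart, with means of 71.2 ± 12.9 CPM in PI_HC (SD, n = 3) and 29.3 ± 4.21 CPM in C_HC (SD, n = 4). The gene rose 2.43-fold, a log2 fold change of 1.28 (SE 0.19, edgeR adjusted p = 0.000568). It passed the test under each of 14 alternatives, with edgeR or DESeq2 adjusted p between 1.27e-07 and 0.00985.

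Elsewhere phosphatase A did not pass the test with all libraries. It had 46.7, 59.3, 58.8 and 39.5 CPM in PI_PC, against 41.7, 44.4, 34.9 and 43.9 CPM in C_PC, which overlap (log2 fold change 0.31, edgeR adjusted p = 0.423). FI_HC had 41.3, 29.7, 48.9 and 49.9 CPM and FP_HC 49.5, 47.8, 39.3 and 39.8 CPM, against the same C_HC values. All FP_HC libraries and 3 of the FI_HC libraries lay above C_HC, with log2 fold changes of 0.59 (SE 0.18, edgeR adjusted p = 0.529) in FP_HC and 0.53 (SE 0.18, edgeR adjusted p = 0.74) in FI_HC. FP_PC had 55.8, 60.4, 44.9 and 66.6 CPM, all above C_PC (log2 fold change 0.46, SE 0.18, edgeR adjusted p = 1.00), while FI_PC spanned 29.7 to 52.7 CPM. The PI effect on phosphatase A was larger at equal height by 0.97 on the log2 scale (SE 0.26), which did not pass the test of that difference (edgeR adjusted p = 0.0641). The controls themselves differed, since C_HC, at 24.2 to 34.5 CPM, lay wholly below C_PC, at 34.9 to 44.4 CPM. That difference between the controls was not called with all libraries.

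A phosphatase J gene (LOC101263696, chromosome 4, 53378543 to 53381511, minus strand) was low under PI in both experiments. It had 27.1, 34.0 and 33.1 CPM in PI_HC, against 64.8, 56.6, 59.8 and 60.0 CPM in C_HC. It fell by 0.94 on the log2 scale (SE 0.14, edgeR adjusted p = 0.000464), with no overlap between the groups. The call held under each of 14 alternatives, with adjusted p up to 0.00579.

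In the PC experiment phosphatase J had 35.6, 30.6, 24.9 and 22.3 CPM in PI_PC, against 47.4, 42.0, 44.4 and 42.2 CPM in C_PC. Every PI_PC library lay below every C_PC library, those of conflicting identifiers included. The gene fell by 0.63 on the log2 scale (SE 0.12, edgeR adjusted p = 0.0269), and by 0.55 without the 3 libraries (edgeR adjusted p = 0.00404). The call ended when PI_PC and C_PC were fitted alone (edgeR adjusted p = 0.846), and without PI_PC 3 (0.19), C_PC 1 (0.135), C_PC 2 (0.11) or C_PC 3 (0.06).

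The difference between the PI effects on phosphatase J in the HC and PC experiments did not pass the test (difference of log2 fold changes -0.31, SE 0.18, edgeR adjusted p = 0.452). The other filters left it nearer the controls, at 45.4 to 56.8 CPM in FI_HC, 47.8 to 55.7 CPM in FP_HC, 47.2 to 69.9 CPM in FI_PC and 45.5 to 50.1 CPM in FP_PC. All FP_HC libraries still lay below all C_HC libraries, and C_HC lay wholly above C_PC. With all libraries the gene was called in neither of these contrasts. A second phosphatase J gene (LOC101249633) and phosphatase 2 (LOC101250960) averaged only 2.39 and 1.39 CPM.

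The abundant trehalose-phosphate synthases belong to numbered types that in Arabidopsis are known as regulatory-type proteins with little measured synthase activity. LOC101262611, a type 9 synthase on chromosome 4 (20270166 to 20278546, minus strand), had 46.4, 41.8 and 51.3 CPM in PI_HC, against 31.0, 33.0, 33.2 and 35.4 CPM in C_HC. It rose by 0.49 on the log2 scale (SE 0.12, edgeR adjusted p = 0.0331), with no overlap. The call ended without the low-count filter (edgeR adjusted p = 0.0536), and without PI_HC 1 (0.0768), PI_HC 4 (0.233), C_HC 1 (0.0938), C_HC 2 (0.0707) or C_HC 3 (0.0682).

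The other type 9 synthase, LOC101255690, had 53.4, 53.6 and 61.5 CPM in PI_HC, against 44.6, 37.7, 45.9 and 40.6 CPM in C_HC. All PI_HC libraries lay above C_HC, and the log2 fold change of 0.41 was called only without the 3 libraries (edgeR adjusted p = 0.0335, against 0.0808 with all). That fit called 6 of 33 members in PI_HC against C_HC, and 4.37% of all genes. A type 7 synthase, LOC101267327 (chromosome 7, 63511293 to 63517866, plus strand), had 81.2, 80.5 and 93.1 CPM in PI_HC, against 69.0, 70.6, 63.7 and 58.4 CPM in PI_PC. It was higher in PI_HC by 0.38 on the log2 scale (SE 0.09, edgeR adjusted p = 0.0232). The call ended in a fit of those groups alone (edgeR adjusted p = 0.285), without PI_PC 3 (0.091) and without PI_HC 4 (0.198).

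A synthase of the catalytic type 1, LOC101255062, averaged 2.63 CPM. It had 2.15, 1.13 and 1.75 CPM in PI_PC 1 to 3, against 2.94, 3.87 and 2.70 CPM in C_PC 1 to 3, with 2.71 CPM in the library labelled PI_PC 4 and 1.73 CPM in that labelled C_PC 4. Only the first 3 libraries of each group were apart. The log2 fold change was -0.54 with all libraries (edgeR adjusted p = 0.311) and -0.91 without the 3 (edgeR adjusted p = 0.00559).

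The type 6 synthase LOC101259279, at a mean of 0.797 CPM, averaged 1.06 ± 0.483 CPM in FP_HC and 0.516 ± 0.366 CPM in C_HC (SD, n = 4 each). The groups overlap, and its log2 fold change of 1.03 had an SE of 0.45 (edgeR adjusted p = 0.69). In PI_PC against C_PC its log2 fold change was 0.89 (SE 0.43, edgeR adjusted p = 0.344).

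As a list, the 11 tested trehalose genes had a median log2 fold change of 0.26 in PI_HC against C_HC, with 8 of 11 positive, 2 called higher and 1 lower. The median of all genes was within 0.04 of 0 in each filter contrast. The 6 synthesis genes had a median of 0.04 and the 12 breakdown genes 0.00 in that contrast, with none called. In PI_PC against C_PC the medians were -0.18 for synthesis, -0.14 for breakdown and -0.07 for trehalose. FI_PC against C_PC gave 0.14, -0.12 and -0.13 in the same order of lists.

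Synthesis was set against breakdown by the mean centred log2 CPM of each list in each library. Synthesis minus breakdown was 0.06 ± 0.04 in FI_HC, -0.06 ± 0.04 in FP_HC, 0.12 ± 0.13 in PI_HC and 0.11 ± 0.04 in C_HC (SD, n = 4, or 3 for PI_HC). In the PC experiment it was 0.09 ± 0.18 in FI_PC, -0.08 ± 0.14 in FP_PC, -0.14 ± 0.17 in PI_PC and -0.07 ± 0.23 in C_PC (SD, n = 4). The PC groups overlap one another, and only FP_HC lay wholly below the other HC groups. The lists give each gene equal weight, so the abundant beta-amylases, which were lowest in PI_PC, hardly show in this balance. For the same reason the low synthesis genes, at means of 0.484, 2.14 and 3.74 CPM, weigh as much as starch synthase III. Starch synthase IV stood at -1.47 in C_PC 3 on 1 count, so part of the synthesis level is counting noise.

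**Figure D3:**
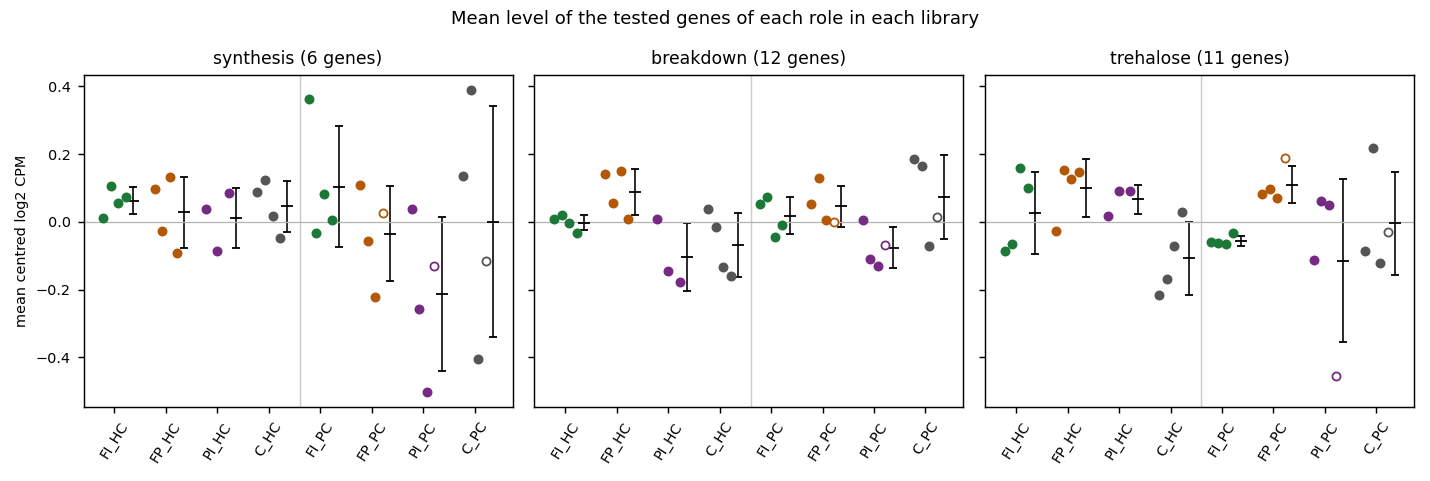
Mean centred log2 CPM of the tested members of each role by group, with 1 point per plant (open circles are the libraries of conflicting identifiers) and bars for the mean ± SD. The levels of synthesis and breakdown overlap across most groups, and PI_PC has the lowest mean for synthesis, at -0.21 against 0.00 in C_PC. Genes of low counts weigh as much as abundant ones in these levels.

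Among the remaining members, a protein with a starch-binding domain (LOC101251213, chromosome 9, 6028245 to 6031390, plus strand) changed in the most contrasts. Such a domain lets a protein attach to starch, and the name tells no more of its role. It had 101, 107 and 117 CPM in PI_HC, against 76.3, 73.2, 81.5 and 71.8 CPM in C_HC, with no overlap. It rose by 0.52 on the log2 scale (SE 0.12, edgeR adjusted p = 0.0239), and was not called without PI_HC 3 (0.0656), PI_HC 4 (0.173), C_HC 1 (0.0623) or C_HC 2 (0.0653).

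At equal flux the same gene had 88.6, 71.4, 60.7 and 73.2 CPM in PI_PC, against 94.5, 115, 90.5 and 71.7 CPM in C_PC, which overlap. The difference between the PI effects (PI_HC against C_HC minus PI_PC against C_PC) was 0.86 on the log2 scale (SE 0.17, edgeR adjusted p = 0.0145), the single member called, against 0.833% of all genes. It was not called in a fit of those 4 groups alone (edgeR adjusted p = 0.213) or without PI_HC 4 (0.0772). Without the 3 libraries 6 members were called for that difference, in a fit that called 17.4% of all genes.

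LOC101251213 was also higher in PI_HC than in PI_PC by 0.56 on the log2 scale (SE 0.12, edgeR adjusted p = 0.0124), with 0.212 in a fit of those groups alone, 0.0673 without PI_PC 3 and 0.126 without PI_HC 4. In FI_PC it had 60.3, 68.0, 68.2 and 77.7 CPM, against the C_PC values above, and fell by 0.44 on the log2 scale (SE 0.12, edgeR adjusted p = 0.039). FI_PC overlaps C_PC only through the library labelled C_PC 4. That call ended in a fit of the groups alone (0.32), without the low-count filter (0.0618), and without FI_PC 1 (0.1), FI_PC 2 (0.117), FI_PC 3 (0.127), C_PC 1 (0.092), C_PC 2 (0.165) or C_PC 3 (0.0648). FP_PC stood at 102 to 118 CPM, FI_HC at 76.7 to 87.1 CPM and FP_HC at 81.2 to 96.1 CPM.

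The last 2 members encode proteins of the alpha-amylase inhibitor class, a name that in seeds covers small storage and defence proteins. LOC101245586 had the widest range of the set, with 17.4, 0.0597, 0.409 and 108 CPM in PI_PC, against 58.4, 25.8, 79.6 and 0.596 CPM in C_PC. PI_PC 2 and 3 and the library labelled C_PC 4 lay near the floor of 3 counts, which is 0.197 to 0.219 CPM. The log2 fold change was -0.39 with all libraries (edgeR adjusted p = 0.9) and -3.22 without the 3 (edgeR adjusted p = 0.0164). In FI_PC, at 26.0, 16.1, 2.52 and 6.60 CPM, it was -1.68 (edgeR adjusted p = 0.479). The low libraries are those with low mesophyll marker sums in PI_PC and C_PC, and the part of the markers was not tested. LOC101255064 had 9.83, 17.6, 7.64 and 24.0 CPM in FI_HC, against 12.3, 5.69, 7.91 and 13.2 CPM in C_HC, a log2 fold change of 0.60 (edgeR adjusted p = 0.998) within overlapping groups.

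**Figure D4:**
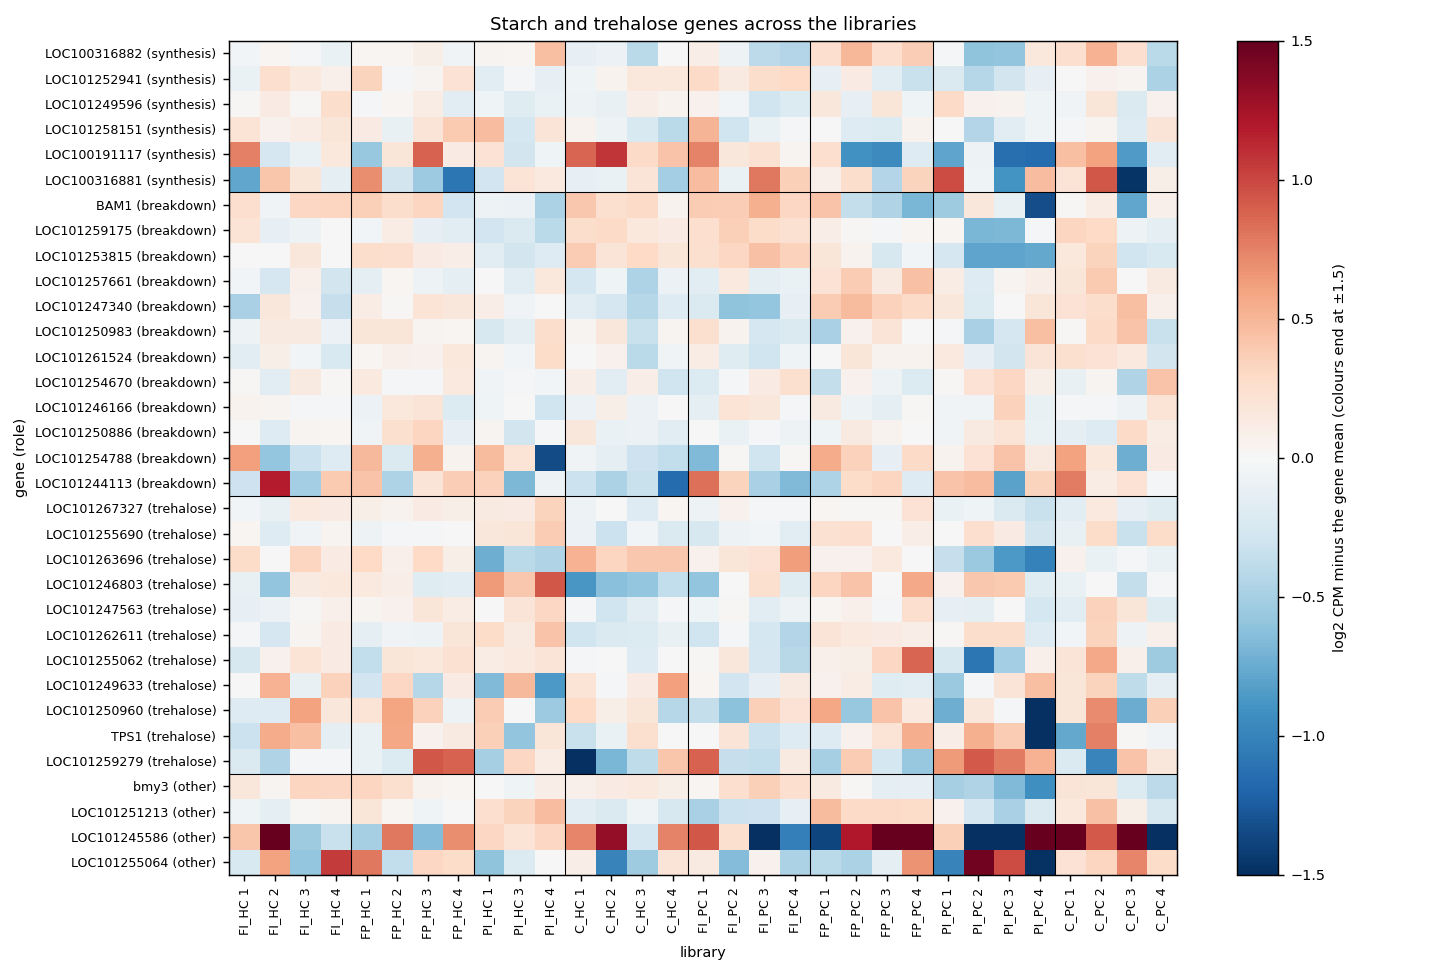
Centred log2 CPM of the tested members (rows, by role) in the 31 libraries (columns, by group), where 0 is the gene's mean over all libraries. PI_HC stands out by high phosphatase A, while phosphatase J is low in both PI_HC and PI_PC. The libraries PI_PC 2, PI_PC 3 and that labelled C_PC 4 share low values of the inhibitor-class gene LOC101245586, at 0.0597, 0.409 and 0.596 CPM.

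Other genes around the pathway were listed by product name, among them sugar phosphate translocators, phosphoglucomutases and subunits of the SNF1-related protein kinase, which trehalose 6-phosphate is known to inhibit in plant tissue. Of 28 such genes 18 were tested. In FI_PC against C_PC with all libraries, 2 of the 18 were lower and none higher, against 0.883% of all genes lower and 2.31% called. Without the 3 libraries of conflicting identifiers 3 were lower and 1 higher, which is 22.2% of the 18, against 6.36% of all genes. The log2 fold changes of the 18 then ran from -0.85 to 2.87. The values that follow are those with all libraries. LOC101267404, a phosphomannomutase or phosphoglucomutase, had 48.1, 36.1, 28.7 and 40.3 CPM in FI_PC, against 77.5, 67.2, 63.1 and 124 CPM in C_PC, and fell by 1.12 on the log2 scale (SE 0.23, edgeR adjusted p = 0.00939). GPI1, for glucose-6-phosphate isomerase, had 104, 89.5, 76.2 and 78.7 CPM in FI_PC, against 143, 127, 113 and 119.7 CPM in C_PC (log2 fold change -0.53, SE 0.14, edgeR adjusted p = 0.039). In both genes all FI_PC libraries lay below all C_PC libraries.

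In PI_HC against C_HC 1 of the 18 was lower, against 2.14% of all genes called. LOC101255080, a beta-3 subunit of the SNF1-related kinase, had 5.75, 6.70 and 5.38 CPM in PI_HC, against 10.5, 13.4, 12.4 and 9.60 CPM in C_HC, and fell by 0.95 on the log2 scale (SE 0.19, edgeR adjusted p = 0.00615). The groups do not overlap. Its FI effect also differed between the experiments, the fold in HC being 0.499 of that in PC (edgeR adjusted p = 0.0309). None of the 18 passed the test in PI_PC against C_PC with all libraries, whereas without the 3 libraries 3 were higher and 2 lower. That is 27.8% of the 18, near the 28.8% of all genes called in that fit.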

How the data were processed

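Poly(A) RNA of 31 leaf libraries, sequenced together on the DNBSEQ platform, was analysed from the deposited counts. Counting used featureCounts 2.0.1, per the file headers, in its paired and reverse-stranded mode, with the exon records of RefSeq's annotation of build SL3.0 as separate features. The submitters' processing notes also name FastQC, HISAT2 and DESeq2. Records were summed by their gene name, and 10 records without one (0.0346% of counts) were left out. Fragments that overlap several records are counted for none, so genes with several transcripts are measured poorly. All 51 members matched a RefSeq gene table made for a different assembly, which served for names only.

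Genes were tested by quasi-likelihood in edgeR 4.0.16 after TMM scaling and filterByExpr (R 4.3.3, limma 3.58.1), over all 31 libraries and 16198 genes, with Benjamini-Hochberg adjustment per contrast at 0.05. CPM values use TMM factors. Alternatives were DESeq2 1.42.0 (Wald test and size factors), no low-count filter, a fit without the other groups, a block for the replicate number, leaving out single libraries, and leaving out the 3 libraries of conflicting identifiers. On simulated counts of FI_PC against C_PC (15996 genes, 199 changed 2-fold), 60.3% were recovered, with 4 false calls among 124. Plants are the replicates. The floor of 3 counts covers counting error only. The replicate pairs of a group all differed by more than sampling noise.

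Members, lists and roles were chosen with earlier results of these data known. The text names each member past the threshold in any contrast, the most abundant tested member of each role, the largest log2 fold change in each filter contrast among members with mean log2 CPM of at least 1, and up to 8 members called in PI_PC against C_PC without the 3 libraries. Other members are named as context and were chosen after their values were seen.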

Additional observations from a re-analysis of the deposited data

Results flagged for a closer look

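In 11 of 133 group tests 1 plant lay far from the others of its group, a share of 8.27%, where chance gives about 1 in 20. For the beta-amylase LOC101253815, PI_PC 1 had 546 CPM against 375 to 382 CPM in the others, and FI_HC 3 had 732 CPM against 652 to 653 CPM. BAM1 was at 958 CPM in C_PC 3 against 1667 to 1784 CPM. The starch-binding protein LOC101251213 had 118 CPM in FP_PC 1 against 102 to 104 CPM. The synthase LOC101267327 had 85.7 CPM in the library labelled FP_PC 4 against 74.7 to 75.1 CPM, and 81.9 CPM in C_PC 2 against 65.2 to 67.9 CPM. The synthase LOC101255062 had 1.94 CPM in FP_HC 1 against 2.88 to 3.03 CPM, and 2.22 CPM in C_HC 3 against 2.50 to 2.55 CPM. The inhibitor-class genes stood out with 108 CPM in the library labelled PI_PC 4 for LOC101245586, against 0.0597 to 17.4 CPM, and with 19.2 CPM in C_PC 3 for LOC101255064, against 13.4 to 14.4 CPM. The mean trehalose level, as centred log2 CPM, was -0.027 in FP_HC 1 against 0.127 to 0.152 in the other FP_HC plants.

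In 2 members a filter's effect differed between the experiments by the test of the difference itself. These were LOC101247340 under FI, by 0.76 on the log2 scale, and LOC101251213 under PI, by 0.86.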

How the results depend on the processing

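Of the named members' values under alternatives, 289 kept direction and side of the threshold, 67 lost the call, 9 gained one and 3 reversed, and of the list medians 486 moved by less than the spread between replicates and 19 by more. Phosphatases A and J in PI_HC against C_HC kept their calls under every alternative run. The 3 reversals are LOC101245586 in PI_PC against C_PC, at 0.155 without C_PC 3, 0.0266 without PI_PC 2 and 0.023 without PI_PC 3 on the log2 scale, in a range of -2.81 to 0.155 with 1 library left out. The cause of these shifts was not tested.

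Counts of called members moved as follows. Fitting the compared groups alone, which uses fewer samples, gave 0 for FI_PC against C_PC, PI_PC against C_PC, PI_HC against PI_PC and both the FI and PI differences between experiments. Without the 3 libraries of conflicting identifiers the count was 10 for PI_PC (28.8% of all genes called), 5 for PI_HC against PI_PC (15.5%), 1 for C_HC against C_PC (1.76%), 2 for the FI difference (3.51%) and 6 for the PI difference (17.4%). With both choices together, added after the data were seen, it was 0 for PI_PC (4.69% of all genes), 0 for PI_HC against PI_PC (0.188%), 2 for C_HC against C_PC (3.45%), 2 for the FI difference (4.7%) and 4 for the PI difference (10.3%). DESeq2's Wald test gave 7 for PI_HC against C_HC (4.14% of all genes), 3 for C_HC against C_PC (1.92%), 3 for the FI difference (2.77%) and 2 for the PI difference (2.77%). Without the low-count filter FI_PC against C_PC had 1 (1.09%). Leaving out 1 library gave 0 to 3 for FI_PC, 0 to 7 for PI_PC (0 without C_PC 1, C_PC 2 or PI_PC 3, and 7 without C_PC 4), 2 to 4 for PI_HC against C_HC (2 without PI_HC 4, C_HC 1 or C_HC 2), 0 to 1 for C_HC against C_PC, 0 to 4 for PI_HC against PI_PC, 0 to 2 for the FI difference and 0 to 5 for the PI difference.

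Median log2 fold changes of lists moved without the 3 libraries to -0.235 for breakdown in PI_PC against C_PC, 0.0839 for breakdown in the FP difference and 0.278 for trehalose in the PI difference. Without the low-count filter the trehalose median of the FI difference was 0.143. With 1 library left out, synthesis ranged from -0.0543 to 0.219 in FI_PC, -0.153 to 0.0956 in C_HC against C_PC, -0.0903 to 0.168 in FI_HC against FI_PC, -0.0948 to 0.231 in the FI difference and -0.0724 to 0.387 in the PI difference. Breakdown ranged from -0.169 to -0.0359 in FI_PC, -0.113 to 0.0231 in PI_HC against PI_PC and 0.0153 to 0.179 in the PI difference. Trehalose ranged from -0.202 to 0.0213 in FI_PC, -0.138 to 0.0734 in PI_PC, -0.253 to 0.0033 in C_HC against C_PC, -0.153 to 0.0621 in FP_HC against FP_PC, 0.153 to 0.363 in the FI difference and -0.051 to 0.147 in the FP difference.

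Same-numbered plants showed no clear shared deviation, with mean correlations of -0.196 to 0.113 over the contrasts, and were not treated as pairs. The 3 libraries of conflicting identifiers all carry number 4, so these correlations cannot exclude a pairing in the PC experiment. With the replicate number as a block the counts were 1 for FI_PC against C_PC, 2 for PI_PC against C_PC, 4 for PI_HC against C_HC, 0 for the FI difference and 1 for the PI difference. With the block the edgeR adjusted p was 0.0587 for bmy3 in PI_PC, 0.0629 for LOC101251213 in FI_PC and 0.0565 for LOC101247340 in the FI difference, so that none of these was called. In FP_PC and in FP_HC against their controls, 4 of 8 libraries correlated best with their own number.

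Of the 18 untested members, 15 have several transcripts, whose fragments are mostly not counted. Depth limits the members near the floor of 3 counts.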
